A study of Ctenopharyngodon idella and Danio rerio with 13 samples.

Results

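Sperm made in a surrogate host were set against sperm of the host species, to ask whether genes abundant in zebrafish sperm libraries left a trace in the surrogate-made sperm. The 8 libraries concerned were 3 of GSCT sperm and 5 of zebrafish sperm, out of 13 in the series. GSCT stands for germline stem cell transplantation: a zebrafish carries grass carp germline stem cells, taken from a female donor per the series title, and releases sperm of the grass carp. The labels give the genotype of the GSCT samples as surrogate reproduction and that of the grass carp and zebrafish samples as wild type, with no age. Whether germ cells of the hosts had been removed is not given in the sources used here. The other 5 libraries, of wild-type grass carp (Ctenopharyngodon idella) sperm, served as the level of each gene without a zebrafish host. Each library was made from the diluted sperm of 1 fish with a kit for single cells that amplifies full-length mRNA.

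In surrogate reproduction, germline stem cells of a donor settle in the gonad of a host and mature there, so the gametes carry the donor's genome while the surrounding somatic cells and fluids belong to the host. Mature sperm transcribe little or nothing, and the RNA they hold is largely left over from spermatogenesis or taken up in the genital tract. All libraries were counted on grass carp genes. Zebrafish reads are counted only where they align to grass carp sequence, which happens most readily for conserved genes such as ribosomal RNA, actins and ribosomal proteins, and a 0 in any library does not show that the transcript was absent.

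Counts that carried a gene name came to 2602370, 2138122 and 376926 in the GSCT libraries and to 248321, 59237, 487, 105536 and 183275 in zebrafish libraries 1 to 5. Grass carp libraries held 1335167 to 5471312. Zebrafish library 3, with 487 counts, was left out unless stated. Levels below are CPM, that is, counts scaled to the total of named counts of the library. A row of the count table stands for 1 gene, and 3 counts, taken as the floor, correspond to 1.15 to 7.96 CPM in GSCT libraries, 0.548 to 2.25 CPM in grass carp libraries and 12.08 to 50.6 CPM in the 4 zebrafish libraries. Marker genes of unlike cell types had counts in GSCT libraries. The summed germ cell and erythrocyte markers of every GSCT library lay below those of every grass carp library, and the other sums overlapped. Of all 28165 rows tested between these groups, 2724 lay below in this way. Among the germ cell markers, ddx4, dazl and sycp3 had lower means in GSCT than in grass carp libraries, and piwil1 a higher one (37.7 against 31.6 CPM). The 4 sperm markers found in the files, hydin, spag6, tekt1 and dcst2, summed to 270 to 305 CPM in GSCT, 266 to 342 CPM in grass carp and 0 to 67.5 CPM in all 5 zebrafish libraries. Leukocyte markers (5 of 5 in the files) summed to 149 to 202 CPM in GSCT, 161 to 185 CPM in grass carp and 0 to 5.46 CPM in zebrafish libraries. Testis somatic markers (4 of 5) summed to 94.5 to 103 CPM in GSCT, 87.6 to 112 CPM in grass carp and 0 CPM in zebrafish libraries. Germ cell markers (4 of 4) summed to 135 to 142 CPM in GSCT, 154 to 169 CPM in grass carp and 0 to 16.4 CPM in zebrafish libraries. Of the sperm markers, spag6 had 28.8 to 34.5 CPM in GSCT libraries and 48.3, 67.5, 0 and 16.4 CPM in zebrafish libraries 1, 2, 4 and 5, while tekt1 and dcst2 had 0 counts in every zebrafish library. GSCT libraries had counts on markers of every cell type looked for. They also had counts on 28173 to 30003 of the 31314 named rows, so this does not show that those cell types were present. Epithelial markers (4 of 5) summed to 79.6 to 97.2 CPM in GSCT, 71.4 to 111 CPM in grass carp and 0 to 43.7 CPM in zebrafish libraries. Erythrocyte markers (5 of 6) summed to 63.4 to 73.0 CPM in GSCT, 74.8 to 89.8 CPM in grass carp and 0 to 4.03 CPM in zebrafish libraries. Of these, hbaa2 had 0 counts in GSCT library 3, where 3 counts are 7.96 CPM, above its grass carp mean of 5.68 CPM. The erythrocyte marker alas2 was called lower in GSCT than in grass carp libraries (log2 -1.22, edgeR adjusted p = 0.0288), as were 0.845% of all rows tested. The other erythrocyte markers were not called and went both ways. hbaa2 and slc4a1a were lower (log2 -0.65 and -0.09), and hbba1 and hbba2 were higher (log2 0.37 and 0.51). What part these cell types had in the results was not tested.

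Rows abundant in zebrafish libraries were those with 10 or more counts in each of zebrafish libraries 1, 2, 4 and 5 and a mean of 500 CPM or more. There were 40, of which 3 were ribosomal RNA (rRNA) genes, 3 were long noncoding RNA (lncRNA) genes and 34 encoded proteins, 17 of them proteins of the cytosolic ribosome. At the edge of the rule, zbtb20 was just inside at a mean of 511 CPM and tnrc6ba just outside at 499 CPM. Since zebrafish levels chose these rows, their difference from GSCT libraries is a description. In 38 of the 40 rows every GSCT library lay below every zebrafish library, where 8.95% of all rows tested between these groups were called lower in GSCT. Among the 28165 rows tested between GSCT and grass carp, 239 lay below every zebrafish library in every GSCT library. One exception was mybpc2a, a myosin-binding protein, and the other the rRNA gene LOC127507980.

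Cytoskeletal genes led the abundant protein-coding rows. The cytoplasmic actin actb2 had 9.99, 11.7 and 7.96 CPM in GSCT libraries, against 2742, 8643, 38177 and 11311 CPM in zebrafish libraries 1, 2, 4 and 5. Grass carp libraries had 10.5 to 19.4 CPM of actb2. The GSCT level was thus 0.0649% of the zebrafish mean, and each GSCT library lay within or below the grass carp range. The second cytoplasmic actin, actb1, averaged 8.33 ± 0.895 CPM over 3 GSCT libraries, 8.43 ± 1.58 CPM over 5 grass carp libraries and 1189 ± 708 CPM over 4 zebrafish libraries (errors here and below are SD unless marked SE). Reads of these near-identical genes may have been shared between them. tmsb4x, which encodes the actin-binding peptide thymosin beta, averaged 4.95 ± 1.35 CPM in GSCT, 6.398 ± 1.63 CPM in grass carp and 995 ± 660 CPM in zebrafish libraries. For mybpc2a the GSCT libraries had 73.0, 96.8 and 69.0 CPM and the zebrafish libraries 52.4, 12999, 13578 and 31183 CPM, so zebrafish library 1 alone lay below the GSCT libraries.

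Ribosomal protein genes, which build the cytosolic ribosome, were likewise near grass carp levels in GSCT libraries. The large-subunit gene rpl37 had 13.8, 11.7 and 13.3 CPM in GSCT libraries, against 254, 22689, 4198 and 8746 CPM in zebrafish libraries. In grass carp libraries it had 7.58 to 15.7 CPM, a range that held every GSCT value. The small-subunit gene rps15a had 12.7, 14.97 and 13.3 CPM in GSCT libraries, 12.06 to 19.5 CPM in grass carp libraries, and 797, 10382, 8888 and 2483 CPM in zebrafish libraries. rpl18 had 10.8, 6.55 and 7.96 CPM in GSCT libraries, all below the 11.98 to 16.04 CPM of grass carp libraries, and 125 to 12560 CPM in zebrafish libraries. Across the 17 abundant ribosomal protein rows, the summed share of named counts came to 0.0230% ± 0.00196 in the 3 GSCT libraries, 0.0247% ± 0.00217 in the 5 grass carp libraries and 5.32% ± 4.79 in the 4 zebrafish libraries.

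Further abundant rows encoded chaperones and nuclear proteins. hsp90ab1, a cytosolic chaperone, averaged 23.96 ± 8.61 CPM in GSCT, 22.1 ± 4.24 CPM in grass carp and 2420 ± 1974 CPM in zebrafish libraries, over the same 3, 5 and 4 libraries. ptmaa, a prothymosin of the nucleus, averaged 7.89 ± 3.83 CPM in GSCT, 10.4 ± 2.96 CPM in grass carp and 4965 ± 6067 CPM in zebrafish libraries. rack1, a scaffold protein on the small ribosomal subunit, averaged 10.5 ± 3.41 CPM in GSCT, 10.7 ± 2.87 CPM in grass carp and 1523 ± 1324 CPM in zebrafish libraries. The SD of all these zebrafish means was of the order of the mean itself, so the zebrafish libraries differed widely among themselves, while GSCT and grass carp libraries stayed close together. The mRNA decay factor zfp36l1a was steadier among zebrafish libraries, at 1148, 996, 796 and 1893 CPM, and had 32.3, 26.2 and 13.3 CPM in GSCT libraries and 19.7 to 32.8 CPM in grass carp libraries. So was the lncRNA LOC127497132, at 2078, 1688, 2236 and 1157 CPM in zebrafish libraries, with 26.1, 24.8 and 29.2 CPM in GSCT libraries and 28.3 to 41.04 CPM in grass carp libraries.

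**Figure D1:**
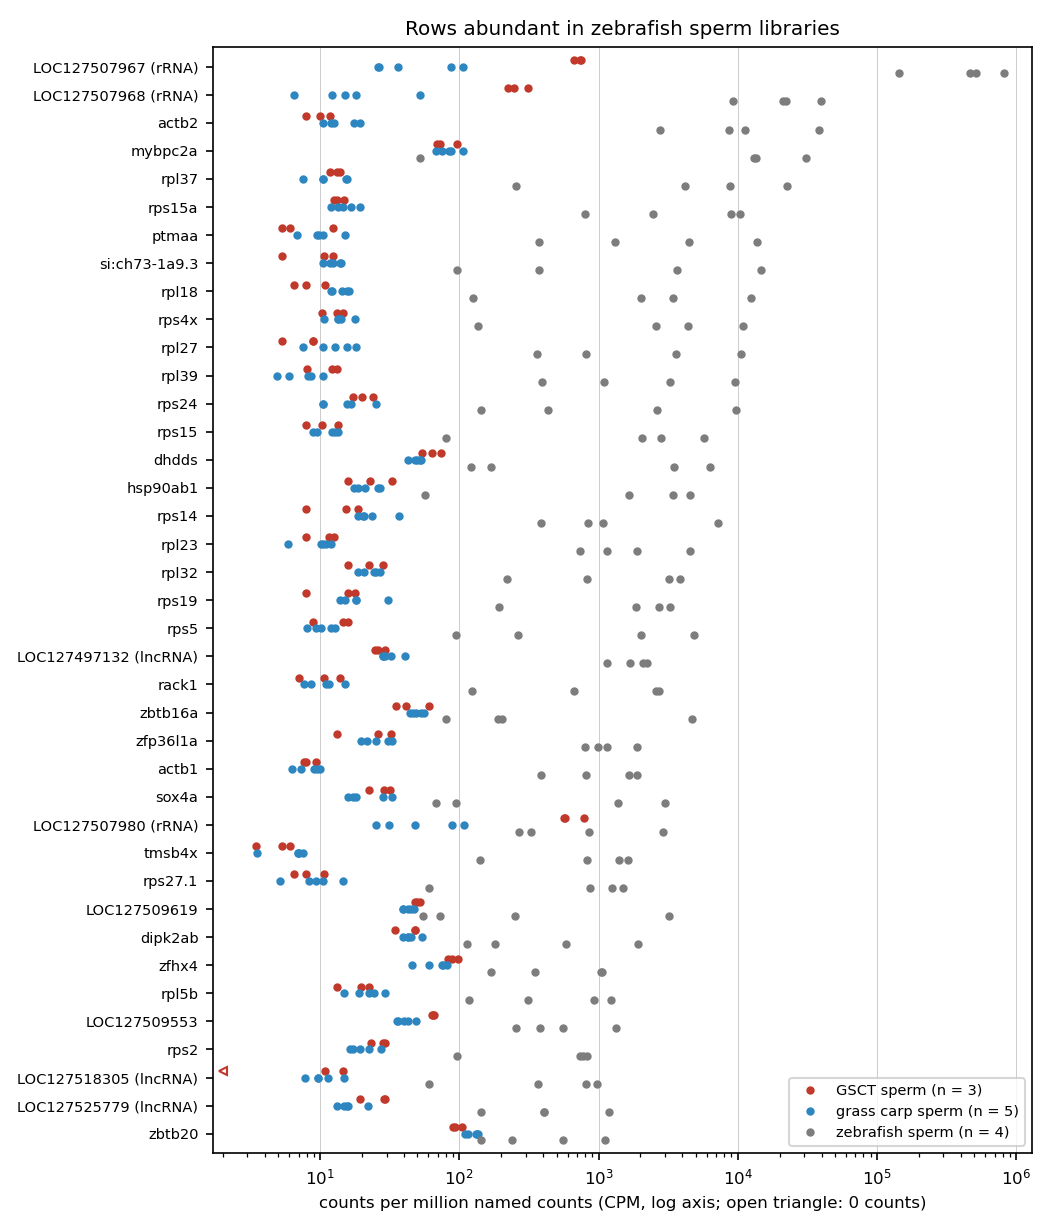
Levels of 39 of the 40 rows abundant in zebrafish libraries, in CPM of named counts on a log axis, 1 point per library: GSCT (red, n = 3), grass carp (blue, n = 5) and zebrafish (grey, n = 4). For the 36 rows plotted that are not rRNA, GSCT points lie among or near the grass carp points, and only the 3 rRNA rows have GSCT points well to the right of them.

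Whether any of the abundant rows were raised in GSCT libraries was tested against grass carp libraries, which the choice of rows did not use. Both fits share the GSCT libraries, so the values are given side by side. Over all 28165 rows tested by edgeR's quasi-likelihood test, 3.47% were called higher and 0.845% lower in GSCT at a Benjamini-Hochberg adjusted p under 0.05. Of the 37 abundant rows other than rRNA, 1 was higher and 0 were lower. At an unadjusted p under 0.05, 5 of the 37 were higher and 2 lower, and DESeq2 called 1 higher and 0 lower. Over all 28165 rows, 5631 were under that unadjusted p in either direction, and DESeq2 called 830 higher and 138 lower. The median log2 fold change of the 37 was 0.09, against -0.01 over all rows tested. The range was -0.64 to 0.72.

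Together these 37 rows held 0.0968%, 0.0971% and 0.0913% of named counts in the 3 GSCT libraries. They held 0.0854% to 0.1006% in grass carp libraries, a range that contains every GSCT value, and 1.61%, 16.5%, 13.7% and 12.5% in zebrafish libraries 1, 2, 4 and 5. The GSCT mean exceeded the grass carp mean by 0.000709 percentage points, which is 0.00639% of the zebrafish mean. That small difference changed sign with the choice of rows. Rows chosen without zebrafish library 1, 2, 4 or 5 gave -0.000776, 0.0100, -0.00346 and 0.00541 percentage points in that order, and rows with a mean of 2000 CPM or more gave -0.00188. Taken library by library, the excess over the grass carp mean was 0.0223%, 0.0247% and -0.0278% of the zebrafish mean, against an SD of grass carp libraries of 0.0551% on the same scale. A trace of these transcripts was not detectable at this depth and with this spread between fish. Percents of the zebrafish mean, here and below, set no upper limit on host RNA. Zebrafish CPM are scaled only to the reads that were counted on named grass carp genes. In bulk libraries such as these, fewer host cells and less RNA per host cell cannot be told apart.

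The single row called higher was LOC127509553, a protein-coding gene with no symbol. It had 64.9, 63.6 and 66.3 CPM in GSCT libraries, against 36.0 to 48.5 CPM in grass carp libraries, and 254, 1334, 559 and 382 CPM in zebrafish libraries. GSCT and grass carp values did not overlap, and the log2 difference was 0.72 ± 0.14 (SE; edgeR adjusted p = 0.00441). Without GSCT library 2 it did not pass (log2 0.72, edgeR adjusted p = 0.0632). Of the 37 abundant rows other than rRNA, 4 had every GSCT library above every grass carp library and 2 had every one below. Of all 28165 rows tested, 1701 lay above and 2724 below in this way. Of the 4 rows only LOC127509553 was called. The transcription factor gene zbtb20, at the lower edge of the rule, did not pass, with 93.8, 104 and 90.2 CPM in GSCT libraries against 109 to 136 CPM in grass carp libraries (log2 -0.30 ± 0.13, edgeR adjusted p = 0.213), and its zebrafish libraries had 142 to 1108 CPM.

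A wider view took every protein-coding row tested between GSCT and grass carp in order of its zebrafish level. Among 16196 rows at 0 in the 4 zebrafish libraries, the median log2 difference between GSCT and grass carp was -0.030 and 3.08% were called higher, beside 2.90% of all protein-coding rows tested. Among 162 rows above 500 CPM in zebrafish libraries, the median was -0.024 and 1.85% were called higher. The 4 classes between, from low to high zebrafish level, had medians of -0.028, -0.008, -0.002 and -0.005 and shares of 2.87%, 1.97%, 2.48% and 1.57%. The share called higher in GSCT was thus no greater among rows high in zebrafish libraries than among rows at 0 there, a difference given here without a test.

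**Figure D2:**
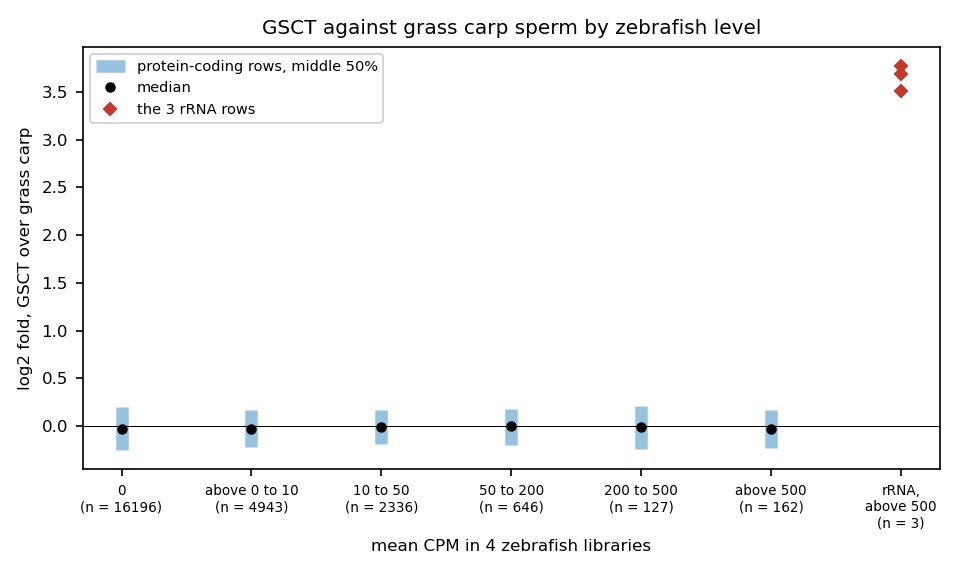
Log2 difference between GSCT (n = 3) and grass carp (n = 5) libraries, on the vertical axis, for protein-coding rows grouped by their mean CPM in 4 zebrafish libraries. Bars span the middle 50% of rows, dots are medians and red diamonds the 3 abundant rRNA rows; the dots stay between -0.030 and -0.002 in all 6 classes, while the diamonds lie between 3.51 and 3.77.

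Zebrafish libraries were uneven, and a gene could be high in 1 of them only. A rule chosen after seeing the data therefore took the 221 rows with 1000 CPM or more in any of the 4 zebrafish libraries. Beyond the 40 rows above there were 183, of which 182 could be tested between GSCT and grass carp. They held 0.607% ± 0.0173 of named counts in 3 GSCT libraries, 0.649% ± 0.0278 in 5 grass carp libraries and 22.0% ± 16.7 in 4 zebrafish libraries. Their median log2 difference was -0.08. Of the 182 rows 2 were called higher in GSCT and 3 lower, beside 3.47% and 0.845% of all rows tested.

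The higher rows were LOC127507924 and syncrip, which are named because they passed. LOC127507924, a protein-coding gene with no symbol, had 79.9, 82.3 and 76.9 CPM in GSCT libraries and 6.80 to 23.97 CPM in grass carp libraries. Its zebrafish libraries 1, 2, 4 and 5 had 113, 0, 18146 and 142 CPM. The difference between GSCT and grass carp was 2.62 ± 0.25 (log2, SE; edgeR adjusted p = 8.65e-07), with no overlap between the groups. In the grass carp RefSeq table (assembly HZGC01) the chromosome of this gene is unknown. The rRNA gene LOC127507964 is listed before it and the lncRNA LOC127507935 after it. Both had 0 counts in zebrafish libraries and were higher in GSCT than in grass carp libraries. LOC127507964 averaged 358 against 15.8 CPM (log2 4.51, edgeR adjusted p = 7.97e-08). LOC127507935 averaged 5082 against 471 CPM (log2 3.50, edgeR adjusted p = 4.45e-06). Next in the list, on either side, come the abundant rRNA genes LOC127507967 and LOC127507968. Their chromosome is also unknown, so the order of the list does not show that these genes share a sequence. syncrip, an RNA-binding protein of mRNA transport, had 36.1, 35.1 and 53.1 CPM in GSCT libraries against 13.1 to 27.4 CPM in grass carp libraries (log2 1.00 ± 0.22, edgeR adjusted p = 0.0126), and 8.05, 3207, 208 and 21.8 CPM in zebrafish libraries. Its call was lost without GSCT library 1 (edgeR adjusted p = 0.0573) or 2 (adjusted p = 0.0897).

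The lower rows were sycp1, qkia and man1a1. qkia, an RNA-binding protein of splicing and mRNA stability, had 48.0, 49.1 and 31.8 CPM in GSCT libraries, against 81.5 to 126 CPM in grass carp libraries, and its log2 difference was -1.10 ± 0.18 (SE; edgeR adjusted p = 7.97e-04). Its zebrafish libraries had 12.08, 50.6, 1137 and 469 CPM. The calls of sycp1, of the synaptonemal complex of meiosis (log2 -0.64, edgeR adjusted p = 0.0446), and of man1a1, a mannosidase of the Golgi (log2 -0.58, edgeR adjusted p = 0.0451), were each lost when any 1 GSCT library was left out, with edgeR adjusted p as high as 0.299 for sycp1 and 0.204 for man1a1. sycp1 was also lost without grass carp library 1 or 3, and man1a1 without grass carp library 2, 3, 4 or 5.

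Among the 40 abundant rows, the 3 rRNA rows had the largest differences between GSCT and grass carp libraries. Ribosomal RNA forms the core of the ribosome and is the most abundant RNA of most cells, and its sequence is among the most conserved between species. LOC127507967 had 735, 743 and 666 CPM in GSCT libraries, against 25.9 to 106 CPM in grass carp libraries. In zebrafish libraries 1, 2, 4 and 5 it had 821368, 143171, 514109 and 464433 CPM. All GSCT libraries lay above all grass carp libraries, by 3.77 ± 0.34 (log2, SE; edgeR adjusted p = 4.13e-07), and the excess equalled 0.135% of the zebrafish mean. LOC127507968 had 309, 246 and 226 CPM in GSCT libraries, 6.53 to 52.6 CPM in grass carp libraries and 9220 to 39562 CPM in zebrafish libraries, and its difference between GSCT and grass carp was 3.69 ± 0.37 (edgeR adjusted p = 1.79e-06). For LOC127507980 the GSCT level was near that of zebrafish libraries, with 786.2, 570.6 and 567.8 CPM in GSCT, 25.1 to 108 CPM in grass carp and 326, 270, 2928 and 857 CPM in zebrafish libraries 1, 2, 4 and 5. Its difference between GSCT and grass carp was 3.51 ± 0.32 (edgeR adjusted p = 4.56e-07). The 3 rows together held 0.162% ± 0.0192 of named counts in the GSCT libraries (n = 3), 0.0137% ± 0.00893 in the grass carp libraries (n = 5) and 51.0% ± 28.4 in the zebrafish libraries (n = 4).

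rRNA rows with 0 counts in zebrafish libraries were higher in GSCT than in grass carp libraries as well. Of the 94 rRNA rows, 51 could be tested between GSCT and grass carp, and 44 were higher in GSCT and 0 lower. Over all rows tested, 3.47% were higher and 0.845% lower. At an unadjusted p under 0.05 there were 47 higher and 0 lower by edgeR, and DESeq2 called 43 higher and 0 lower. Of all 28165 rows tested, 5631 were under that unadjusted p in either direction, and DESeq2 called 830 higher and 138 lower. Of the 37 tested rRNA rows with 0 counts in all 5 zebrafish libraries, 34 were higher, with a median log2 difference of 4.41. Of the 14 with a zebrafish count, 10 were higher, with a median of 3.73. The highest rRNA row in every GSCT and every grass carp library was LOC127510334, which had 2305, 4139 and 4072 CPM in GSCT libraries, 126 to 240 CPM in grass carp libraries and 0 in zebrafish libraries. Its difference between GSCT and grass carp was 4.44 ± 0.26 (log2, SE; edgeR adjusted p = 2.57e-10). LOC127510348 had 985, 2226 and 1963 CPM in GSCT libraries and 49.4 to 105 CPM in grass carp libraries, again with 0 in zebrafish libraries (log2 4.71 ± 0.27, edgeR adjusted p = 2.24e-10). rRNA copies can be near identical, so counts may be shared among these rows.

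rRNA counts were spread over many rows in GSCT and grass carp libraries and were gathered on 1 row in zebrafish libraries. LOC127507967 took 7.39%, 4.14% and 3.88% of all rRNA counts in GSCT libraries, and 3.77% to 10.1% in grass carp libraries, a range that holds every GSCT value. In zebrafish libraries it took 95.4%, 86.0%, 97.6% and 95.4%. All 3 abundant rRNA rows together took 11.9% ± 5.67 of rRNA counts over 3 GSCT libraries, 16.5% ± 5.74 over 5 grass carp libraries and 99.8% ± 0.217 over 4 zebrafish libraries. The remaining rRNA rows held 1.34% ± 0.459 of named counts in GSCT, 0.0632% ± 0.0172 in grass carp and 0.0441% ± 0.0301 in zebrafish libraries. A count was found on 59 to 74 rRNA rows in GSCT libraries, on 57 to 66 in grass carp libraries and on 10 to 16 in zebrafish libraries.

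**Figure D3:**
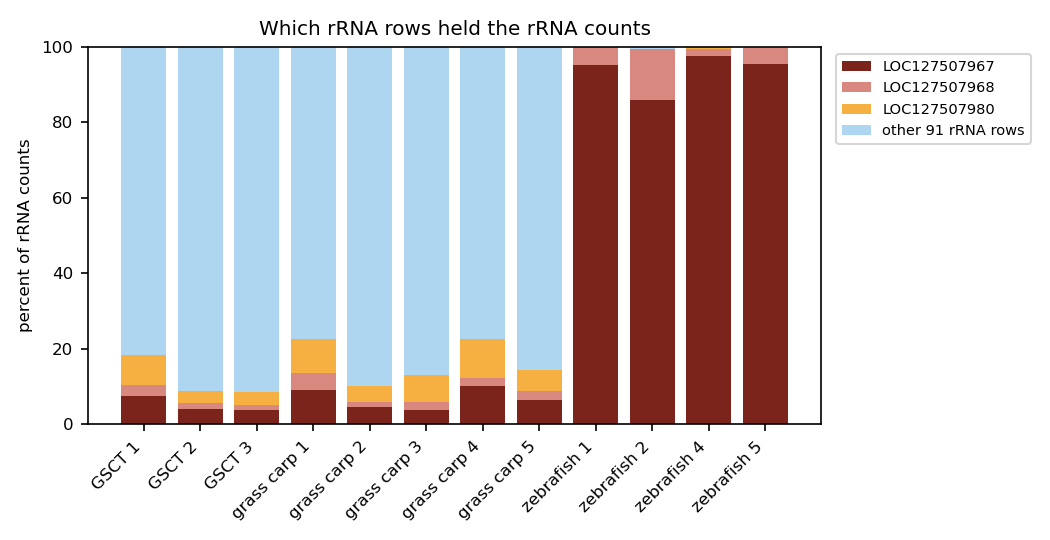
Share of each library's rRNA counts, in percent, that fell on the 3 rRNA rows abundant in zebrafish libraries and on the other 91 rRNA rows, 1 bar per library. LOC127507967 takes 3.88% to 7.39% in GSCT libraries, 3.77% to 10.1% in grass carp libraries and 86.0% or more in zebrafish libraries.

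A total of 24 rows carried no gene name and were kept out of the library totals. They held 0.678%, 0.360% and 0.172% of all counts in GSCT libraries and 13.8%, 77.9%, 64.1% and 63.3% in zebrafish libraries 1, 2, 4 and 5. Grass carp libraries had 0.00360% to 0.138%. The difference between GSCT and grass carp was at the smallest p that 3 against 5 libraries allow (exact permutation p = 0.0179, two-sided, adjusted p = 0.0298 over 5 measures), and every GSCT library was higher. In zebrafish libraries the unnamed row numbered 4 took 99.7% or more of the unnamed counts, and in GSCT libraries it took 64.0%, 54.6% and 54.5%. That row alone held 0.434%, 0.196% and 0.0940% of all counts in GSCT libraries, against 0.00213% to 0.135% in grass carp libraries, so the groups overlapped. The unnamed row numbered 2 did not overlap between GSCT and grass carp libraries. It held 0.163%, 0.107% and 0.0509% of all counts in GSCT libraries and 0.000962% to 0.00254% in grass carp libraries, and 0.00417%, 0.201%, 0.0241% and 0.184% in zebrafish libraries 1, 2, 4 and 5. It is described after its values were seen, and its difference was not tested. A set of 22 unnamed rows, all but those numbered 2 and 4, came to 819, 563 and 275 when scaled as CPM of all counts in GSCT libraries, 3.47 to 12.0996 in grass carp libraries and 0 to 52.1 in zebrafish libraries. GSCT libraries had counts on 21 or 22 of the 22, and zebrafish libraries on 0 to 3.

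Small nuclear RNA (snRNA), of the splicing machinery, was also gathered on 1 row in zebrafish libraries, on fewer counts. In zebrafish libraries 2, 4 and 5 the row LOC127507862 took 89.9%, 91.9% and 86.1% of snRNA counts, and it had 2701, 1819 and 2237 CPM there, and 8.05 CPM in zebrafish library 1. In GSCT libraries LOC127507862 had 3.84, 5.61 and 7.96 CPM, against 2.83 to 5.99 CPM in grass carp libraries (log2 0.39 ± 0.42, edgeR adjusted p = 0.656). snRNA counts in GSCT libraries fell on 60 to 117 rows, and the leading one was LOC127511598, with 20.8% to 25.6% of them.

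The direct comparison of GSCT with zebrafish libraries was dominated by how many genes had any count. Thinned to the 59237 named counts of the smallest zebrafish library kept, GSCT libraries were expected to show 20399.5 ± 139 rows with a count (n = 3) and zebrafish libraries 3243 ± 555 (n = 4). Every GSCT library was higher. The exact two-sided permutation test gave p = 0.0286, the smallest that 3 against 4 libraries allow, and adjusted p = 0.0571 over 5 measures, so it did not pass. The 10 highest rows took 2.41% ± 0.114 of named counts in GSCT and 60.4% ± 23.9 in zebrafish libraries (exact permutation p = 0.0571, adjusted p = 0.0571). The other 3 measures, the shares on rRNA, on mitochondrial protein genes and on unnamed rows, had the same adjusted p by exact permutation. Of 31314 named rows, 22353 had 0 counts in the 4 zebrafish libraries, and 19274 of these had a count in all 3 GSCT libraries. Conversely 1591 of the 1607 rows with a count in all 4 zebrafish libraries had one in all 3 GSCT libraries. So did 28026 of all 31314 named rows, so a count in GSCT libraries was common to most rows of any kind.

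**Figure D4:**
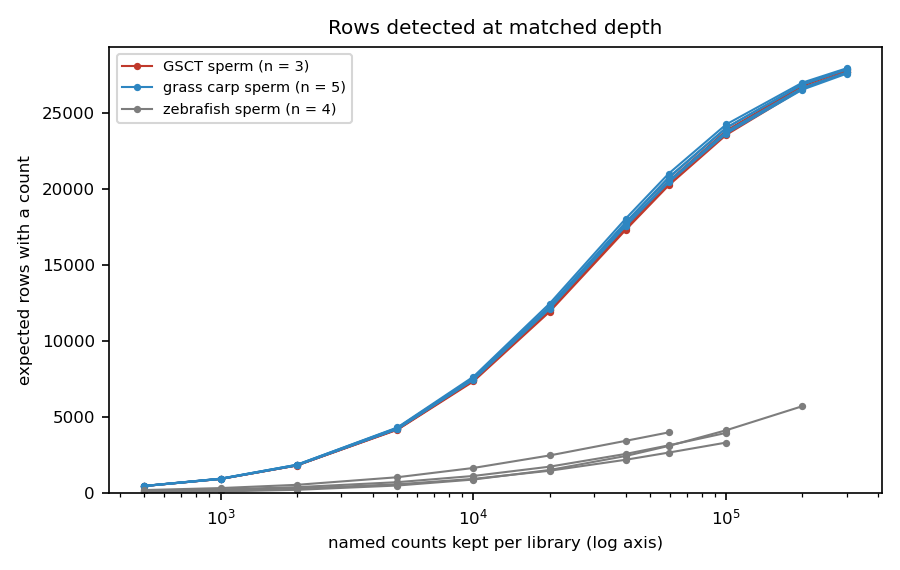
Expected number of rows with a count, on the vertical axis, when each library is thinned to a given number of named counts (log axis), 1 line per library: GSCT (red, n = 3), grass carp (blue, n = 5) and zebrafish (grey, n = 4). At 59237 counts GSCT libraries reach 20258 to 20536 rows, next to the grass carp lines, and zebrafish libraries 2683 to 4011.

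Of 6937 rows that passed the filter on low counts, 86.5% were called, 5379 (77.5%) were higher and 621 (8.95%) lower in GSCT than in zebrafish libraries by edgeR's quasi-likelihood test at an adjusted p under 0.05. The 5379 included 3228 rows with 0 counts in the 4 zebrafish libraries, and all 3228 such rows tested were called higher. Such a row enters the fit only through its GSCT values, so those calls carry no information on their own. On the same 6937 rows, other scalings gave a median log2 difference of 4.05 to 5.48, against 4.32 here. With zebrafish library 3 included, 4346 of 5622 rows were higher and 559 lower. The filter asks for a minimum level in 3 libraries, so a row that is low in GSCT libraries enters only through high zebrafish values. Lists of genes are therefore described without a filter, where 63.0% of 30337 rows were higher and 4.00% lower.

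Most mitochondrial protein genes had 0 counts in zebrafish libraries and were high in GSCT libraries. ND5, a subunit of respiratory complex I, had 3021, 2091 and 1037 CPM in GSCT libraries and 0 counts in all zebrafish libraries. In grass carp libraries it had 14.99 to 40.3 CPM, with no overlap with GSCT libraries (log2 6.34 ± 0.35, SE; edgeR adjusted p = 1.12e-10). Against 3 counts pooled over the 4 zebrafish libraries, which come to 5.03 CPM, the GSCT mean was 407-fold higher. That fold is not a lower bound, since 3 counts weigh more in a shallower library. COX1, of cytochrome c oxidase, had 2610, 1687 and 942 CPM in GSCT libraries, and in zebrafish libraries it had 32.7 CPM in library 5 and 0 in the others. Without a filter, 12 of 13 mitochondrial protein genes were higher and 0 lower, beside 63.0% and 4.00% of all rows. With the filter, edgeR called 11 of 12 higher and 0 lower, beside 77.5% and 8.95% of all rows. DESeq2 called 12 higher. Of the 13 genes, 10 had 0 counts in the 4 zebrafish libraries. Such rows enter the filtered fit only through their GSCT values, so their calls carry no information on their own. Between GSCT and grass carp libraries all 13 were higher, with a median log2 difference of 6.25, beside 3.47% of all rows. The 13 genes held 1.79%, 1.22% and 0.618% of named counts in GSCT libraries, 0.0113% to 0.0278% in grass carp libraries and 0 to 0.0270% in zebrafish libraries. These shares cover mitochondrial protein genes alone, and what the unnamed rows encode is not known here. The difference from grass carp was at the smallest exact permutation p, 0.0179 (adjusted p = 0.0298 over 5 measures), and so was that of the rRNA share, at 1.501% ± 0.441 in GSCT and 0.0769% ± 0.0258 in grass carp libraries. What part the one had in the other was not tested. A nuclear gene picked for the size of its difference was arnt, a partner subunit of basic helix-loop-helix transcription factors, with 512, 558 and 483 CPM in GSCT libraries and 0 in zebrafish libraries. The GSCT mean of arnt was 103-fold above the same 5.03 CPM.

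The share of sperm tail genes called higher in GSCT than in zebrafish libraries was no greater than that of all rows. Of 67 axoneme and flagellum genes, 39 were higher and 6 lower without a filter, beside 63.0% and 4.00% of all rows, and 28 had 0 counts in the 4 zebrafish libraries. The list held 0.382% to 0.417% of named counts in GSCT libraries, and 0.0326%, 0.518%, 0.145% and 0.177% in zebrafish libraries 1, 2, 4 and 5, so zebrafish library 2 lay above every GSCT library. hydin, of the central pair of motile cilia, had 204, 198 and 218 CPM in GSCT libraries, against 4.03 CPM in zebrafish library 1, which is 1 count, and 0 in the others. cfap74, another protein of the central apparatus, had 95.3, 115 and 117 CPM in GSCT libraries and 0 in zebrafish libraries. Its GSCT mean was 21.6-fold above 3 counts pooled over the 4 zebrafish libraries. Of 43 germ cell and meiosis genes, 35 were higher and 5 lower, and 32 had 0 zebrafish counts. Their summed share of named counts was 0.140% to 0.150% in GSCT libraries and 0.0113% to 0.645% in zebrafish libraries, so the groups overlapped. ddx4, the germ plasm helicase vasa, had 62.6, 68.8 and 66.3 CPM in GSCT libraries and 67.8 to 86.0 CPM in grass carp libraries, with 0 in zebrafish libraries. msh5, of meiotic crossing over, averaged 97.3 ± 10.4 CPM over 3 GSCT libraries and was at 0 in zebrafish libraries. Its GSCT mean was 19.3-fold above 3 counts pooled over the 4 zebrafish libraries. The meiosis gene sycp1 had 31.9, 23.9 and 23.9 CPM in GSCT libraries. It had 0, 219, 2293 and 1326 CPM in zebrafish libraries 1, 2, 4 and 5, where its mean was higher than in GSCT libraries.

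Leukocyte and testis somatic genes were higher in GSCT libraries about as often as all rows. Of 33 leukocyte genes 22 were higher and 0 lower without a filter, and of 30 testis somatic genes 20 were higher and 3 lower, beside 63.0% and 4.00% of all rows. mpx, the myeloperoxidase of neutrophils, had 44.96, 44.90 and 71.6 CPM in GSCT libraries and 27.4 to 47.5 CPM in grass carp libraries, with 0 in zebrafish libraries. amh, anti-Müllerian hormone of Sertoli cells, had 48.8, 50.04 and 58.4 CPM in GSCT libraries, 49.0 to 63.5 CPM in grass carp libraries and 0 in zebrafish libraries. Counts on the leukocyte list in the filtered fit were 3 higher and 0 lower of 5 by edgeR, the same at an unadjusted p under 0.05. DESeq2 called 4 higher and 0 lower. Of all 6937 rows of that fit, edgeR called 77.5% higher and 8.95% lower, and 6043 were under that unadjusted p. DESeq2 called 5737 higher and 429 lower. Rows with 0 zebrafish counts, such as mpx, enter the filtered fit only through their GSCT values, so their calls carry no information on their own. Of 27 blood cell genes 15 were higher and 2 lower, and of 35 genes of epithelium, muscle and kidney 16 were higher and 0 lower, with 0 of 1 tested in the filtered fit in either direction by edgeR, also unadjusted, and by DESeq2. Of 18 sperm head genes 14 were higher and 1 lower, of 54 nuclear genes of oxidative phosphorylation 20 were higher and 4 lower, and of 46 genes of glycolysis and creatine kinase 33 were higher and 4 lower.

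Ribosomal protein genes were lower in GSCT than in zebrafish libraries. Of 83 cytosolic ribosomal protein genes, 67 were lower and 1 higher in GSCT without a filter, beside 4.00% and 63.0% of all rows. In GSCT libraries the 83 genes held 0.0838% to 0.0921% of named counts, in grass carp libraries 0.0926% to 0.103%, and in zebrafish libraries 1.07% to 21.5%. rpl8 had 4.61, 3.74 and 2.65 CPM in GSCT libraries, against 173, 5250, 56.9 and 7502 CPM in zebrafish libraries. rps12 had 11.1, 12.16 and 10.6 CPM in GSCT libraries, against 777, 32024, 19.0 and 12822 CPM in zebrafish libraries. Between GSCT and grass carp libraries 0 of the 83 were called in either direction by edgeR or DESeq2. At an unadjusted p under 0.05, 1 was higher and 3 lower. Of all 28165 rows tested, edgeR called 3.47% higher and 0.845% lower, and 5631 were under the unadjusted p in either direction. Translation and RNA binding factors were divided, with 22 of 80 higher and 25 lower than in zebrafish libraries. Their eif1, which selects the start codon, had 11.1, 14.97 and 23.9 CPM in GSCT libraries, against 169, 50.6, 21680 and 1964 CPM in zebrafish libraries.

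Of the remaining lists, cytoskeletal genes had 21 of 54 higher and 18 lower in GSCT than in zebrafish libraries, chromatin and nuclear protein genes 8 of 31 higher and 12 lower, and heat shock and immediate early genes 28 of 60 higher and 15 lower. These counts are without a filter, where 63.0% of all rows were higher and 4.00% lower. In all 15 lists each member in the files had a count in at least 1 GSCT library. Single GSCT libraries had counts on 28173 to 30003 of all 31314 named rows, so this is not particular to the lists.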

How the data were processed

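Sperm RNA of 13 fish was sequenced, 1 library per fish: 3 GSCT, 5 grass carp and 5 zebrafish. The authors deposited raw counts per gene, 1 table per library over the same 31338 rows. The tools named, per the submitters' processing notes and with no versions, are HISAT2, SAMtools, Subread, featureCounts, fastp, FastQC and CASAVA. The sources used here do not give the genome build, annotation, strand setting or how multiply mapped reads were counted. Rows of near-identical or overlapping genes are therefore uncertain, and no coordinates or sequences are given. All 31314 named rows matched a symbol of the grass carp RefSeq table (assembly HZGC01), used for gene type and for order in its list. The 24 unnamed rows were kept out of totals and tests.

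Groups were compared with edgeR 4.0.16 in R 4.3.3 on the counts (TMM factors, filterByExpr with minimum count 10 and minimum total 15, quasi-likelihood F test, Benjamini-Hochberg adjustment over all tested rows). The fits used GSCT 1 to 3 with zebrafish 1, 2, 4 and 5, or with grass carp 1 to 5. DESeq2 1.42.0, other scalings, no filter and leaving out libraries were alternatives. The fits were tested on simulated data. Single measures were compared by exact two-sided permutation.

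Named genes were the 20 highest abundant rows with a symbol, the 8 largest changes each way between GSCT and zebrafish among non-overlapping rows of 20 CPM or more, abundant rows called against grass carp, up to 4 members of each of 15 lists with the lowest p, and the 10 highest GSCT rows. One abundant row is counted in totals but not reported here by name. Which of these the text gives was chosen after their values were seen, and so were actb1, zfp36l1a, zbtb20, ddx4, LOC127497132, LOC127507862, LOC127510348, tnrc6ba and the rows high in any zebrafish library. The comparison, the rows and the lists were chosen with earlier results of these data known. Reads were amplified and carry no molecular identifiers, so floors cover counting error only.

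Replicate numbers were not taken as pairing the libraries, since not every same-numbered pair deviated together.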

Additional observations from a re-analysis of the deposited data

Results flagged for a closer look

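In groups of 4 or 5 libraries, 13 single values stood apart from the rest of their group, out of 116 groups of values examined. Chance flags about 1 in 20 groups when genes are not picked by their values. Some genes here were examined because they were high in a zebrafish library, so the number of flags cannot be set against that rate. Most flags were zebrafish libraries in which 1 gene was high. Zebrafish library 2 had 3207 CPM of syncrip against 8.05 to 208 CPM in the others, 4136 CPM of man1a1 against 0 to 32.2 CPM, and 14754 CPM of LOC127520505 against 4.03 to 19.0 CPM. Zebrafish library 4 had 21680 CPM of eif1 against 50.6 to 1964 CPM, 18146 CPM of LOC127507924 against 0 to 142 CPM, and 3184 CPM of LOC127509619 against 54.6 to 253 CPM. Zebrafish library 5 had 4687 CPM of zbtb16a against 80.5 to 203 CPM. In zebrafish library 1, rps2 was low at 96.6 CPM against 739 to 827 CPM.

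Some flags rest on 0 in the other libraries. hydin had 4.03 CPM in zebrafish library 1, COX1 32.7 CPM in zebrafish library 5 and piwil1 16.4 CPM in zebrafish library 5, each against 0 in the other 3. In grass carp, library 1 was low for tmsb4x at 3.52 CPM against 6.95 to 7.49 CPM. Grass carp library 1 was high for LOC127507968, one of the rRNA rows of the report, at 52.6 CPM against 6.53 to 17.98 CPM. The lowest GSCT value of that row was 226 CPM.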

How the results depend on the processing

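The 3 abundant rRNA rows were higher in GSCT than in grass carp libraries under every alternative fit run, and the 2000 CPM rule keeps 2 of them. No single gene followed through the alternatives changed direction. The small GSCT excess over grass carp on the abundant rows other than rRNA did change sign. Of the other abundant rows, 0 were higher with a mean of 2000 CPM or more (21 rows in the set), 2 with 200 CPM or more (107 rows), 3 higher and 3 lower with 1000 CPM in any zebrafish library, and 0 to 2 higher when 1 library was left out. The set held 40 to 76 rows without 1 zebrafish library. The GSCT excess over grass carp on these rows was 0.00468 percentage points with zebrafish library 3 included and -0.00346 to 0.0100 without 1 of the other zebrafish libraries.

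Against zebrafish, rows higher numbered 8273 with library sizes from all rows, 19113 with no filter and 4667 to 7236 without 1 library. Rows lower numbered 345 with library size alone, 987 with library sizes from all rows, 1214 with no filter and 501 to 703 without 1 library. Against grass carp, leaving out 1 library gave 262 to 1199 higher and 23 to 336 lower, where GSCT library 2 gave the lowest of both. Rows lower numbered 138 by DESeq2, against 238, and library size alone gave 718 higher and 424 lower. Library measures passed the threshold with zebrafish library 3, of 487 named counts, included. Its addition lowers the smallest possible exact permutation p from 0.0286 to 0.0179. GSCT minus zebrafish was then -57.3 points for unnamed rows, -51.9 for the 10 highest rows, -41.2 for rRNA and 1.2004 for mitochondrial protein genes. Without it the differences were -54.4, -58.0, -49.5 and 1.198 in that order. The measure of the 50 highest rows, without that library, gave -70.3 and also passed.

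The numbers shared by GSCT and zebrafish libraries gave no sign of pairing: deviations of same-numbered libraries correlated at -0.116 and -0.0664. The low depth of the zebrafish libraries limits that check. With the replicate block, over the 4 libraries numbered 1 and 2, 0 rows were higher and 2 lower. So few libraries leave that fit little to estimate spread from. The same libraries with no block gave 6811 and 1113, an alternative chosen after seeing the data. For GSCT and grass carp the correlations were 0.148, 0.134 and 0.0336, and GSCT library 3 correlated more with grass carp library 2 than with its own number. Against grass carp the block gave 667 higher and 200 lower, and the same libraries without it 487 and 94.

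Zebrafish depth limits the comparison: 3 counts were 12.08 to 50.6 CPM there.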
